A study of Arabidopsis thaliana with 14 samples.

Results

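Seedlings of Arabidopsis thaliana labelled as double mutants of SUVH2 and SUVH9 were compared with Col-0, the wild type, by RNA sequencing. The comparison took every gene row of 1 deposited table, 32548 in all, in 4 of the 14 libraries of the series: suvh2/9 replicates 1 and 2 against the 2 Col-0 libraries that the labels pair with them. Both groups were whole seedlings of 11 days, grown on MS plates with 16 h of light at 23 °C and 8 h of darkness at 21 °C, and harvested without a further treatment. The double mutant is given as suvh2(-/-);suvh9(-/-), without the alleles. The table also holds 2 libraries of fve, a mutant of the autonomous flowering pathway given as fve(-/-), which served as a second reference. A second table holds 2 more Col-0 libraries and 6 of other mutants. Its values were normalised separately, so its levels are set beside the others without a test. RNA was taken from 1 g of tissue per library and read as single ends of 50 bases. Nothing in the labels tells whether the replicates were grown as separate cultures. P-values reflect only how far the tested libraries spread, with those of fve included in 1 shared estimate.

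SUVH2 and SUVH9 belong to the SU(VAR)3-9 family, most of whose members methylate histone H3. These 2 proteins are known instead for binding methylated DNA without methylating histones themselves. They help bring RNA polymerase V to loci that are already methylated, and the transcripts of that polymerase guide small RNAs and the methyltransferase DRM2 to the same DNA. This RNA-directed DNA methylation keeps transposons, repeats and a small number of genes silent. ROS1, a DNA glycosylase, removes methylation from many of the same places, and its own promoter is known to need methylation for transcription.

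Levels are adjusted counts per 1e+06 (CPM), and differences are differences of log2(CPM + 1), suvh2/9 minus Col-0, which understates changes of genes near or below 1 CPM. The 4 libraries held 21259805 to 21722950 adjusted counts, so that 1 count is 0.0465 CPM. A gene without a count could still stand at up to 0.140 CPM, a limit of 3 counts per library that covers counting error only. Across genes, replicates correlated at 0.996 in Col-0 and 0.995 in suvh2/9, a value across genes, which are no independent replicates. The chi-square per gene between replicates was 2.65 in Col-0 and 5.44 in suvh2/9, both above the value that counting error alone would give. Genes of photosynthesis, 18 in number, summed to 94312 and 98093 CPM in Col-0 and 99252 and 100985 in suvh2/9, and all 14 root markers were detected (187 to 190 CPM in sum against 217 to 222). Much of the difference between the root sums lies in 1 member, the iron transporter IRT1, given below with the genes of iron uptake. The defining markers of seeds (9 genes) and pollen (5 genes) summed to at most 0.469 and 0.658 CPM in these 4 libraries. In such bulk tissue, fewer cells of a type and less RNA per cell cannot be told apart.

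The mutated genes were read first. SUVH9 (AT4G13460, chromosome 4, 7823894 to 7827004 in TAIR10.1) stood at 40.7 and 42.8 CPM in Col-0 and at 1.13 and 0.942 in suvh2/9. It fell 40.3-fold (log2 -4.39, SE 0.088, limma adjusted p = 8.13e-11), and the fve libraries were at 40.5 and 41.3. SUVH2 (AT2G33290, chromosome 2, 14108529 to 14112464) was at 9.49 and 9.42 CPM in Col-0 and still at 7.27 and 7.34 in suvh2/9. Both suvh2/9 libraries lay below both Col-0 libraries, but the difference was not called (log2 -0.33, SE 0.098, adjusted p = 0.335). A value per gene does not show which part of the transcript the reads came from. The lncRNA AT2G08565, which overlaps SUVH2 by 60 bases on the opposite strand, was listed at 0 in these libraries.

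Of 19090 genes tested, 109 had a Benjamini-Hochberg adjusted p below 0.05 and were called (0.571%). Of these 74 were higher in suvh2/9 (0.388%) and 35 lower (0.183%), and 39 and 10 of them moved at least 2-fold in CPM + 1 (0.204% and 0.0524%). The 74 higher genes had a median Col-0 level of 2.83 CPM, against 20.9 for the 35 lower genes and 16.7 for all genes tested, and 23 of the 74 were below 1 CPM in Col-0. These levels are partly set by the filter, since a gene below 1 CPM in Col-0 was tested only where a mutant library was high, and by the offset of 1 CPM. The median log2 difference was 1.06 over the higher and -0.79 over the lower genes, and -0.0012 over all genes tested. Without the filter on low values 59 genes were called, 62 when a mean of 5 CPM was required, and 63 with no trend in the moderation. With only Col-0 and suvh2/9 in the fit, so that fve gave no part of the spread, 87 were called (62 higher, 25 lower). Without Col-0 replicate 1 or 2 the number was 54 each, without suvh2/9 replicate 2 it was 172 (134 higher), and without suvh2/9 replicate 1 the lower genes alone were 64.

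**Figure D1:**
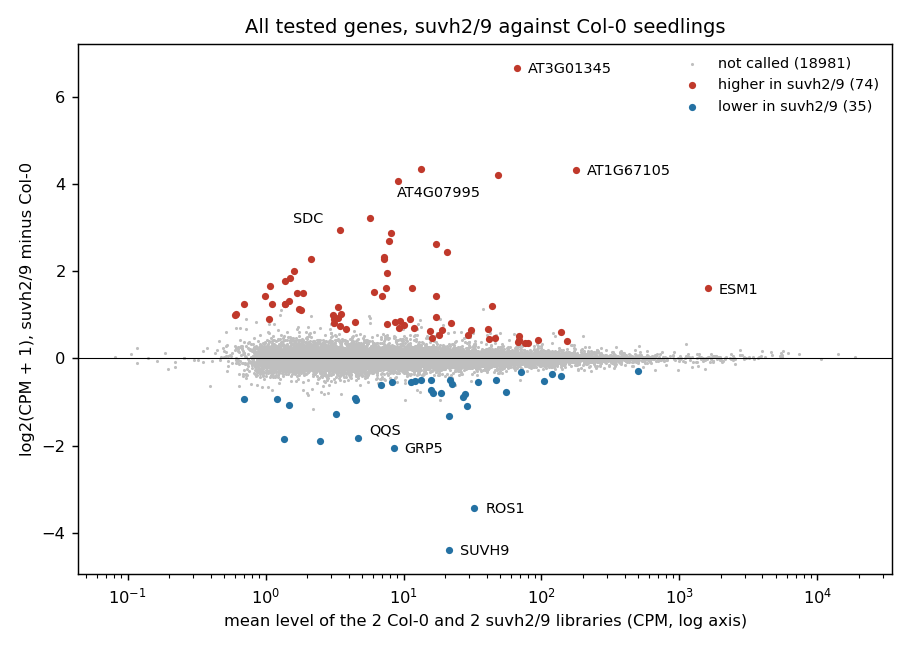
Log2 difference between suvh2/9 and Col-0 (vertical axis, on CPM + 1) against the mean level of the 4 libraries (horizontal log axis, CPM) for the 19090 genes tested. The 74 higher genes (red) include many of low mean level, SUVH9 and ROS1 lie lowest among the 35 lower genes (blue), and grey points were not called.

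In none of the 109 called genes did the 2 groups overlap, while over all genes tested 16.4% had both suvh2/9 libraries above both Col-0 libraries and 16.5% had both below. The Col-0 libraries of the second table gave another reading of the same wild type. Of the 74 higher genes 66 stood above all 4 Col-0 libraries of both tables (7.88% of the genes tested did). Of the 35 lower genes 25 stood below all 4 (6.79% did). The remaining 8 higher and 10 lower genes lay at least in part within the range of wild type in this series. The called genes were already clear of 2 of these 4 libraries, so the shares over all genes tested are not a like measure. Against all 12 other libraries of the series, mutants included, 48 of the higher genes were highest in both suvh2/9 libraries. Of the lower genes 19 were lowest there. The same was not counted over all genes tested, and the called genes were already clear of 2 of these 12 libraries.

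SDC (AT2G17690, chromosome 2, 7682162 to 7684083), an F-box protein gene, is a classical gene kept silent by RNA-directed DNA methylation of repeats ahead of its start. The 270 bases before its annotated start are shown because they hold that repeat. Its 32-base copies run from -252 to -85, the first copy in capitals and the next ones alternately in lower case and capitals, 5 in all (TAIR10.1, chr2:7681892-7682161, plus strand).
SDC: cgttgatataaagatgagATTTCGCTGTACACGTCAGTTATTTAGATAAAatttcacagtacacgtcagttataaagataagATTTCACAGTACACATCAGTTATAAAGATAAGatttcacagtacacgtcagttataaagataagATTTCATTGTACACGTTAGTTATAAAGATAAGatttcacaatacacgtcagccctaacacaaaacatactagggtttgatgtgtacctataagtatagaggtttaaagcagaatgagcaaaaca
SDC was at 0 and 0.0468 CPM in Col-0, that is 1 count in 1 library, and at 7.70 and 6.17 in suvh2/9. It rose by 2.95 on the log2 scale (SE 0.166, adjusted p = 1.53e-06). In fve it stood at 0.603 and 0.369, and suvh2/9 lay above fve by 2.41 (adjusted p = 1.07e-05). AT2G17695, which overlaps SDC by 1303 bases on the opposite strand, was at 41.3 and 41.9 CPM in Col-0 and 42.7 and 42.8 in suvh2/9 and was not called. Whether counting used the strand is not given in the sources used here.

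SDC was the single gene of its list that rose. It holds 15 genes for which silencing by DNA methylation is known in some tissue, accession or mutant, not always in Col-0 seedlings. Methylation was not measured here, so members that did not rise are no measure of lasting silencing. Of the 15 genes, 11 never reached the filter and were at most 0.141 CPM in Col-0 and 0.188 in suvh2/9. Among these 11 was FWA, the imprinted homeobox gene whose loss of methylation delays flowering, at 0.0920 and 8.35e-05 CPM in Col-0 and 0.188 and 0.188 in suvh2/9. The seed genes MEA and PHE1 and the floral gene SUP were also among them. The 4 tested members had a median log2 difference of 0.10. APC13 and PAI2 were not called (log2 0.11 and 0.09), and QQS fell.

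QQS (AT3G30720, chromosome 3, 12349047 to 12349933), which regulates starch content, is known for levels that differ with methylation between plants of the same accession. It was at 10.7 and 5.30 CPM in Col-0 and at 1.17 and 1.69 in suvh2/9. It fell by 1.82 on the log2 scale (SE 0.229, adjusted p = 0.00236), a call lost when low genes were kept (0.184) or no trend was fitted (0.0745). The gene varied widely in wild type, with 16.6 and 16.4 CPM in the Col-0 libraries of the second table. The fve libraries were at 4.69 and 4.52 CPM, and fve was not called against Col-0 (log2 -0.61, limma adjusted p = 0.247). Against fve, suvh2/9 was lower by a log2 difference of -1.21 (adjusted p = 0.0176). All libraries of the other mutants, in the second table, were between 1.12 and 2.255 CPM.

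ROS1 (AT2G36490, chromosome 2, 15307907 to 15314807) showed the steepest fall after SUVH9. Its level was 60.9 and 60.01 CPM in Col-0 and 4.23 and 5.27 in suvh2/9, 12.7-fold lower (log2 -3.42, SE 0.089, adjusted p = 7.77e-10). The fve libraries were at 45.8 and 46.7, and suvh2/9 lay below fve by 3.05 on the log2 scale (adjusted p = 3.95e-09). Col-0 in the second table stood at 47.2 and 49.1. No other demethylation gene was called. The 7 tested members had a median of -0.08, and 1 other had an unadjusted p below 0.05. DME, a paralogue known for its role in the central cell of the female gametophyte, was at 70.9 and 67.4 CPM in Col-0 and 75.8 and 65.2 in suvh2/9. DML2 was at 15.7 and 14.3 against 13.6 and 14.7. DML3 was higher at an unadjusted p of 0.0192 only (7.93 and 7.74 against 9.15 and 11.1 CPM, adjusted p = 0.567). IDM1, IDM2 and MBD7, which help recruit ROS1, differed by -0.13, -0.13 and -0.06. Of the genes that demethylases are known to keep active, EPF2 was the single member tested and was not called (log2 0.15), and RMG1 and RLP43 were at most 0.329 CPM.

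On the lists of the methylation machinery MORC6 was called, and DMT2, which is on none of them, was also called and is given with the genes near SUVH9. Of 11 tested genes of the branch around RNA polymerase V, limma called 0, none had an unadjusted p below 0.05, and the median log2 difference was 0.0023. NRPE1, the largest subunit of that polymerase, was at 20.4 and 18.4 CPM in Col-0 and 17.9 and 21.0 in suvh2/9. DRM2 was at 15.5 and 14.6 against 16.5 and 15.1, and AGO4, which carries the small RNAs, at 77.8 and 76.8 against 79.1 and 82.1. Of 8 genes of the small RNA branch 0 were called, and NRPD1 and RDR2 were higher at an unadjusted p of 0.025 and 0.0302 (log2 0.34 and 0.22). Of 12 genes on the list of methylation maintenance 0 were called. That list also holds genes that do not themselves maintain DNA methylation. Among these IBM1, a histone demethylase gene, was higher at an unadjusted p of 0.0342 (log2 0.20), the only member of the list below 0.05. MET1, CMT2, CMT3 and DDM1 lay between -0.04 and -0.01. Of 8 tested relatives of the mutated genes 0 were called. Only SUVH5 had an unadjusted p below 0.05, with 3.94 and 3.61 CPM in Col-0 and 5.40 and 5.32 in suvh2/9 (log2 0.41, adjusted p = 0.287). The other tested relatives, SUVH1, SUVH3, SUVH4, SUVH6, SUVR2, SUVR4 and SUVR5, lay between -0.08 and 0.08.

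MORC6, an ATPase that acts in gene silencing, rose. It was at 12.7 and 14.2 CPM in Col-0 and 19.2 and 18.6 in suvh2/9 (log2 0.47, SE 0.088, adjusted p = 0.0388), above the 9.85 and 11.1 of Col-0 in the second table. The call was lost in 9 of 16 alternatives, where the adjusted p reached 0.445. MORC1 and MORC2 were not called (log2 0.04 each).

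**Figure D2:**
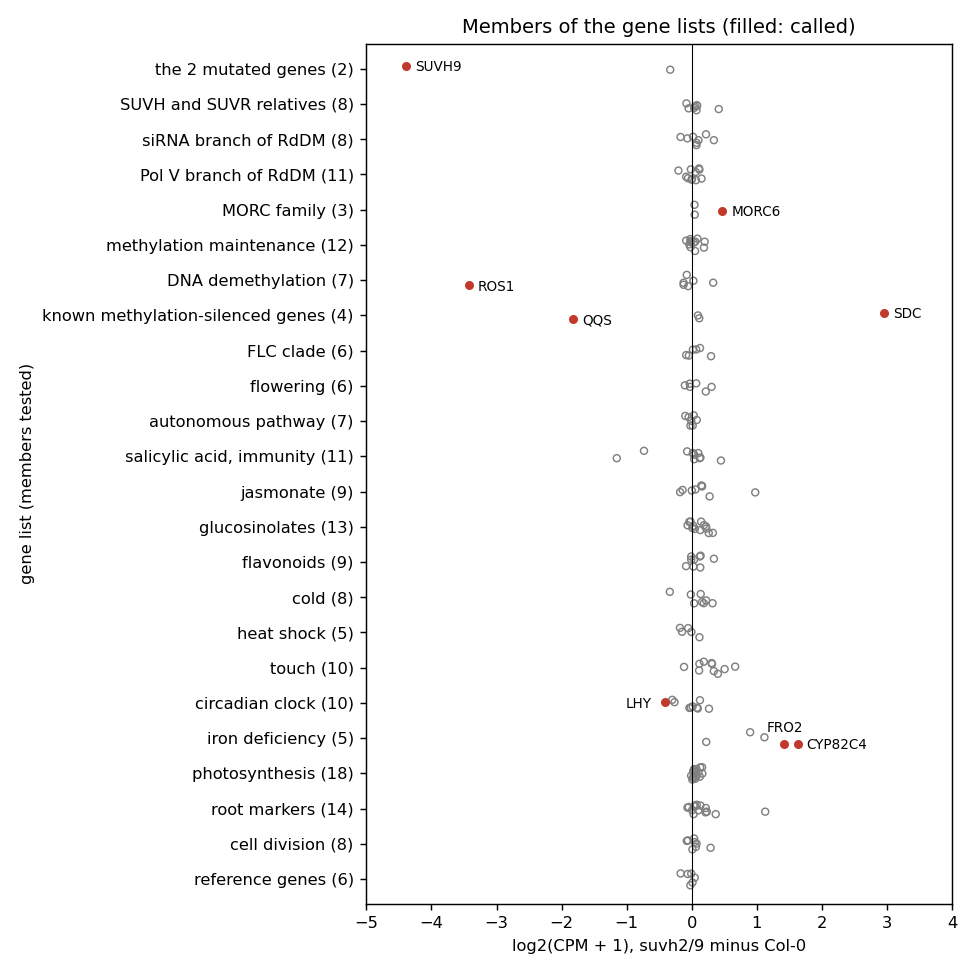
Log2 difference between suvh2/9 and Col-0 (horizontal axis, on CPM + 1) for each tested member of 24 gene lists (rows, number tested in brackets; vertical scatter within a row only separates points). Filled points were called: SUVH9, ROS1, QQS and LHY on the lower side, and SDC, MORC6, FRO2 and CYP82C4 on the higher side.

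The steepest rises were at loci without a described function. AT3G01345 (chromosome 3, 129138 to 130749), annotated as protein-coding, was at 0.0908 and 0.375 CPM in Col-0 and at 81.4 and 184 in suvh2/9 (log2 6.65, SE 0.277, adjusted p = 7.22e-08). It stayed between 0.106 and 0.691 CPM in the other 10 libraries. The 2 suvh2/9 libraries differed from each other more than 2-fold, but both lay far above every other library.

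AT1G67105 (chromosome 1, 25057479 to 25058264), a non-coding RNA, started from a level that was already well measured. It was at 15.3 and 16.5 CPM in Col-0 and 317 and 359 in suvh2/9, 21.3-fold higher (log2 4.32, SE 0.072, adjusted p = 2e-11). In fve it was at 35.0 and 36.7, and suvh2/9 was higher than fve by 3.20 (adjusted p = 3.14e-10). AT4G07995 (chromosome 4, 4842688 to 4843814) followed the same order of groups. It was at 4.36 and 3.85 CPM in Col-0, 16.4 and 16.0 in fve and 85.0 and 101 in suvh2/9, 22.7-fold above Col-0 (log2 4.20, adjusted p = 2.41e-10). A locus that overlaps it by 409 bases on the same strand, AT4G02875, was not analysed here.

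Other loci rose from levels close to the counting floor. The non-coding RNA AT2G01422 (chromosome 2, 183940 to 184734) went from 0.598 and 0.141 CPM to 24.6 and 28.4 (log2 4.35, adjusted p = 6.87e-08), and was at 0.139 and 0 in fve. AT3G29639 (chromosome 3, 11478633 to 11480033) went from 0.184 and 0.0939 to 16.6 and 19.4 (log2 4.06, adjusted p = 2.16e-08). AT2G33175 (chromosome 2, 14062699 to 14063623) went from 0.275 and 0.328 to 9.95 and 12.5 (log2 3.22, adjusted p = 5.87e-07). In each of these the lowest suvh2/9 library was far above the highest of the other libraries of the table.

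In all, 10 of the 74 higher genes had no more than 3 counts in either Col-0 library. AT2G10975 and AT3G44006, which fell outside the rule for named genes and were picked after their values were seen, had no count in either. AT2G10975 was at 2.02 and 2.31 CPM in suvh2/9, at least 15.5-fold higher than the limit of 3 counts per library. AT3G44006 was at 1.27 and 1.505, at least 9.93-fold higher. Both are annotated as uncharacterised proteins, and neither had a count in the Col-0 libraries of the second table.

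**Figure D3:**
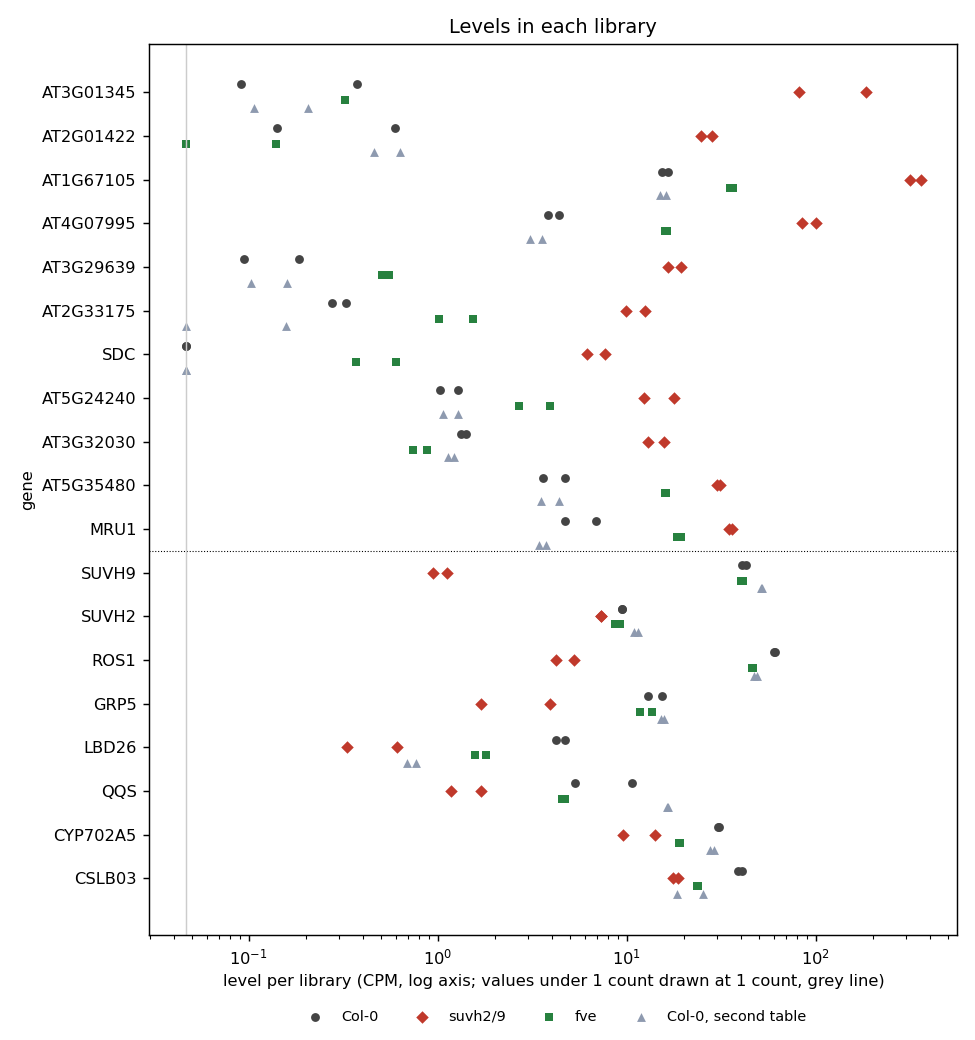
Level in each library (CPM, horizontal log axis) of 11 genes that rose (above the dotted line) and of SUVH9, SUVH2 and 6 further genes, for Col-0, suvh2/9 and fve (2 libraries each) and for the 2 Col-0 libraries of the second table, which was normalised separately. Values below 1 count are drawn at 1 count (0.0465 CPM). All 11 upper genes have both suvh2/9 libraries above the other 6 shown, and in the lower part SUVH2 lies nearest to its Col-0 libraries.

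Genes annotated as other than protein-coding were counted apart. Of 246 tested genes of other types 11 were higher (4.47%) and 1 lower (0.407%), against 63 (0.334%) and 34 (0.18%) of 18844 protein-coding genes. These shares are partly set by the filter: 5 of the 11, and 17 of the 63, were below 1 CPM in both Col-0 libraries and were tested only through the mutants. Among genes not below that level 6 of 227 were higher (2.64%), against 46 of 18630 (0.247%). The 11 were 6 of 88 genes annotated as ncRNA and 5 of 118 annotated as lncRNA. AT4G06265, a lncRNA, went from 0.0456 and 0.0937 CPM to 4.60 and 3.81 (log2 2.28, adjusted p = 6.48e-05). It overlaps the miRNA gene AT4G06260, which was listed at 0, and a locus on the opposite strand that was not analysed here. AT4G04223, an ncRNA, went from 3.26 and 1.69 to 16.1 and 9.04 (log2 1.95, adjusted p = 0.00213), a call lost when low genes were kept (0.188), when no trend was fitted (0.0754) and with robust moderation (0.14). The single lower one, AT3G06955, was at 3.21 and 2.21 CPM in Col-0 and at 0.0469 and 6.43e-05 in suvh2/9, but it was at 0 in both Col-0 libraries of the second table. This gene was outside the rule and picked after its values were seen.

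Some of the changed genes were neighbours. Within 10000 bases of each other lay 9 pairs of called genes, made of 15 genes, and in 7 pairs both members rose. Thus 13.8% of the called genes had another called gene in that window, against 1.61% of all genes tested (307 of 19090). In 1 pair both fell (AT4G13572 and AT4G13577), and in 1 they went opposite ways (AT4G15390 higher, CYP702A5 lower). AT5G35480 (chromosome 5, 13687847 to 13689596), without a described function, and MRU1 (13689817 to 13690548), named for its rise in the mto1 mutant of methionine overproduction, lie 221 bases apart on opposite strands. AT5G35480 was at 4.72 and 3.61 CPM in Col-0 and 31.1 and 29.9 in suvh2/9 (log2 2.62, adjusted p = 7.22e-08). MRU1 was at 6.84 and 4.74 against 36.2 and 34.7 (log2 2.44, adjusted p = 5.93e-07). In fve both were between wild type and suvh2/9, at 16.1 and 15.9 and at 19.5 and 18.4, and suvh2/9 was higher than fve by 0.89 and 0.87 (adjusted p = 0.00113 and 0.00344). AT4G05295, a lncRNA 299 bases from AT4G07995, went from 0.0920 and 8.35e-05 CPM to 3.61 and 2.78 (log2 2.00, adjusted p = 0.000131). GRP20 and AT5G07570, both annotated as glycine-rich, lie 142 bases apart and rose by 1.104 and 0.67. Apart from AT5G35480, MRU1, CYP702A5, AT4G07995 and AT4G13577, the genes of these pairs were picked after their values were seen.

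AT3G32030, annotated as a terpenoid cyclase, was at 1.33 and 1.41 CPM in Col-0, 15.7 and 12.9 in suvh2/9 and 0.742 and 0.877 in fve, 10.5-fold higher than in Col-0 (log2 2.69, SE 0.139, adjusted p = 6.5e-07). Of 21 tested terpenoid cyclases and synthases 4 rose and 0 fell, with a median of 0.24, while over all genes tested 0.388% were called higher and 0.183% lower. This family, like the jacalin lectins, was chosen after the values were seen. The others were the neighbours AT3G29410 and AT3G29430 (log2 1.60 and 1.24), and MRN1. MRN1 makes the triterpene marneral and sits beside 2 cytochrome P450 genes of the same pathway. It was at 0.960 and 1.69 CPM in Col-0 but at 21.2 and 4.96 in suvh2/9 (log2 2.33, SE 0.426, adjusted p = 0.0332). The call was lost in 9 of 16 alternatives and the Col-0 libraries of the second table, at 6.42 and 5.19, lay above suvh2/9 replicate 2. Those P450 genes, CYP705A12 and CYP71A16, were at 6.94 and 12.2 CPM in suvh2/9 replicate 1 and 1.80 and 6.22 in replicate 2, and neither was called (adjusted p = 0.759 and 0.84).

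ESM1, a lipase-like protein that steers glucosinolate breakdown towards isothiocyanates, was the most abundant gene among those that rose and was picked after its values were seen. It was at 815 and 782 CPM in Col-0, 1512 and 1623 in fve and 2450 and 2401 in suvh2/9. That is 3.04-fold above Col-0 (log2 1.60, SE 0.058, adjusted p = 2.4e-08), and suvh2/9 was higher than fve by 0.63 (adjusted p = 0.000148). Of 23 tested jacalin lectins, a family that includes partners of myrosinase, 4 rose (AT1G60095, AT1G60110, MBP1 and AT5G35940), 1 fell (AT1G52000) and the median was 0.19, beside the same 0.388% higher and 0.183% lower over all genes tested. Against fve, AT1G60110 was higher in suvh2/9 (log2 0.80, limma adjusted p = 0.00832). The other 3 that rose, AT1G60095, MBP1 and AT5G35940, were not called between the mutants (adjusted p = 0.504, 0.384 and 0.4945). AT1G52000, lower in suvh2/9, was called higher in fve than in Col-0 (log2 0.86, adjusted p = 0.000108). How reads shared by similar copies were counted is not given in the sources used here, so the levels within such families are uncertain. Of 13 genes of glucosinolate synthesis and breakdown 0 were called, 5 were higher at an unadjusted p below 0.05 and the median was 0.13. The myrosinase gene TGG2 was at 1027 and 958 CPM in Col-0 and 1341 and 1150 in suvh2/9 (log2 0.32, adjusted p = 0.107). The share of all genes tested with an unadjusted p below 0.05 was 3.53% higher and 3.11% lower.

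Other genes that rose had single roles. AT5G24240, a phosphatidylinositol 4-kinase gamma-like gene, was at 1.28 and 1.03 CPM in Col-0 and 12.3 and 17.7 in suvh2/9, 12.9-fold higher (log2 2.87, adjusted p = 5.28e-06). AT1G13609, a defensin-like peptide gene, was at 2.43 and 1.03 against 17.63 and 7.73 (log2 2.27, adjusted p = 0.00385). The Col-0 libraries of the second table had 30.1 and 20.2 CPM of it, so suvh2/9 lay within the range of wild type. The call was lost in 4 of 16 alternatives, where the adjusted p reached 0.515, among them leaving out Col-0 replicate 2 (0.07355). KELP, a transcriptional coactivator gene picked after its values were seen, was at 24.8 and 27.6 CPM in Col-0, 27.2 and 28.9 in fve and 55.9 and 66.7 in suvh2/9 (log2 1.19, adjusted p = 2.85e-05).

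Genes of iron uptake rose in part. FRO2, the root ferric reductase, was at 13.0 and 5.68 CPM in Col-0 and 24.3 and 25.5 in suvh2/9 (log2 1.42, SE 0.245, adjusted p = 0.0216). CYP82C4, which makes an iron-mobilising coumarin, was at 7.76 and 3.15 against 15.3 and 20.2 (log2 1.62, SE 0.292, adjusted p = 0.029). All 5 tested genes of the list were higher at an unadjusted p below 0.05, 2 were called, and the median was 1.12. FRO4, annotated as ferric reduction oxidase 4, is not on the list and was picked after its values were seen. It fell from 25.2 and 29.2 CPM in Col-0 to 18.7 and 16.9 in suvh2/9 (log2 -0.58, limma adjusted p = 0.039). IRT1, the iron transporter listed with the root markers, was at 32.9 and 15.5 CPM in Col-0 and 49.7 and 51.5 in suvh2/9 (adjusted p = 0.0738). In each of FRO2, CYP82C4 and IRT1 Col-0 replicate 1 was more than 2-fold above replicate 2, and both calls were lost in 6 of 16 alternatives. The Col-0 libraries of the second table had 23.8 and 10.4 CPM of FRO2 and 12.2 and 5.26 of CYP82C4. In fve they were at 25.6 and 32.2 and at 14.7 and 24.3, and neither was called between the mutants (log2 -0.20 and -0.10, adjusted p = 0.781 and 0.925).

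Among the genes that fell, GRP5 (AT3G20470), a glycine-rich cell wall protein gene, went from 13.0 and 15.4 CPM to 1.69 and 3.95 (log2 -2.06, SE 0.217, adjusted p = 0.000545). The fve libraries had 13.7 and 11.7 and the second-table libraries of Col-0 had 15.1 and 15.7. All the other libraries of the series were thus above suvh2/9. The call was lost without a filter (0.111) and with robust moderation (0.128).

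LBD26 (AT3G27940), a transcription factor gene of the LOB-domain family, went from 4.72 and 4.22 CPM to 0.329 and 0.611 (log2 -1.90, SE 0.156, adjusted p = 6.48e-05). Its Col-0 level depended on the table, since the second one had 0.770 and 0.689. The fve libraries had 1.81 and 1.57 of LBD26, also called lower than Col-0 (log2 -1.025, limma adjusted p = 0.00531). Against fve, suvh2/9 was lower by a log2 difference of -0.88 (adjusted p = 0.0126). CSLB03, a cellulose synthase-like gene, went from 40.7 and 38.6 to 18.6 and 17.55 (log2 -1.09, adjusted p = 8.16e-06), while fve was at 23.8 and 23.4 and Col-0 in the second table at 25.3 and 18.5. HPL1, annotated as a hydroperoxide lyase gene, went from 6.24 and 6.09 to 2.86 and 2.73 (log2 -0.92, adjusted p = 0.00796), with 3.03 and 2.86 in the second table. The call of HPL1 was lost without a filter (0.165), without Col-0 replicate 1 (0.12) and without Col-0 replicate 2 (0.0978). For CSLB03 and HPL1 suvh2/9 replicate 1 was no lower than the lowest of the 4 Col-0 libraries.

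AT2G13550 went from 4.77 and 5.20 CPM to 1.36 and 1.60 (log2 -1.27, adjusted p = 0.00124), and the fve libraries were at 1.53 and 2.03. AT2G13555, on the opposite strand over 504 of its bases, was listed at 0. AT2G18980, a class III peroxidase gene, went from 35.4 and 36.1 to 18.8 and 21.1 (log2 -0.81, adjusted p = 0.000175). It was below every other library of the series, of which the other mutants were at 26.3 to 34.5. PYD4, an aminotransferase gene, went from 39.2 and 31.7 to 22.0 and 15.5 (log2 -0.89, adjusted p = 0.0196, lost in 5 of 16 alternatives), with fve at 21.1 and 16.8.

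CYP702A5 (AT4G15393, chromosome 4, 8804070 to 8807232), a cytochrome P450 gene, went from 30.4 and 30.9 CPM to 14.03 and 9.61 (log2 -1.32, SE 0.129, adjusted p = 0.000271, 0.0616 without a filter). In fve it was at 19.1 and 18.9, also called lower than Col-0 (log2 -0.66, limma adjusted p = 0.0233). Against fve, suvh2/9 was lower by a log2 difference of -0.66 (adjusted p = 0.0209). Upstream windows of 1000 bases were scanned for tandem repeats with a unit of 12 to 60 bases, at least 3 copies and 90% identity. Such a repeat was found for 344 of 19080 tested genes (1.8%) and 5 of the 109 called ones, namely ESM1, SDC, AT2G33175, AT2G40420 and CYP702A5. The units of ESM1 and AT2G33175 have 12 bases, the shortest scanned, and are simple runs mostly of A and T, unlike the 32-base unit of SDC. The arrays of CYP702A5 and AT2G40420, an amino acid transporter gene picked after its values were seen, share the letters CGCCAAAAACGTAAA, which are in capitals here (TAIR10.1, chr4:8803173-8803295 and chr2:16876450-16876749, plus strand for both).
CYP702A5: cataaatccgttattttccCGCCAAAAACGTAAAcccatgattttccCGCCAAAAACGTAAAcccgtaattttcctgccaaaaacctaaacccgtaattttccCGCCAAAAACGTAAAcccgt
AT2G40420: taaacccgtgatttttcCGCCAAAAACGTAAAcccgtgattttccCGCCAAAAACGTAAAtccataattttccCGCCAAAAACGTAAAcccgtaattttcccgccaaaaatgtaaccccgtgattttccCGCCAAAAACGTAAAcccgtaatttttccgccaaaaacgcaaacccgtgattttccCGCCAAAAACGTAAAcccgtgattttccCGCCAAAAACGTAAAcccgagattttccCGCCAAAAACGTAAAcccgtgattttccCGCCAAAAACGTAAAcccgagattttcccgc
AT2G40420 went from 14.2 and 14.4 CPM to 9.90 and 9.65 (log2 -0.51, adjusted p = 0.0212). On either strand, the letters occur in 17 windows (0.0891%) and at least 3 times in 10 (0.0524%). The 2 of those 10 genes that fell were CYP702A5 and AT2G40420, whose arrays gave the letters, so their count was fixed beforehand. The other 8 were not called, among them JKD with 12 copies (23.8 and 24.4 against 26.0 and 20.4 CPM). A match describes these letters only and is not a site or a cause.

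Genes near the mutated loci were counted apart, in windows chosen after the values were seen. Within 500 kb of SUVH2, 3 of 199 tested genes were called (1.51%): AT2G33175 and AT2G34655 higher and CSLB03 lower. Within 500 kb of SUVH9 they were 3 of 183 (1.64%): DMT2 higher and AT4G13572 and AT4G13577 lower. The share over all genes tested was 0.571%. Within 1000 kb the counts were 3 of 396 around SUVH2 (0.758%) and 8 of 352 around SUVH9 (2.27%). Within 100 kb they were 1 of 38 (2.63%) and 2 of 36 (5.56%), so the share depends on the window. AT4G13577, 68.7 kb from SUVH9, was at 6.33 and 6.28 CPM in Col-0, 10.5 and 10.6 in fve and 2.82 and 2.73 in suvh2/9 (log2 -0.95, adjusted p = 0.00102). Col-0 in the second table was at 2.46 and 3.49. DMT2, a relative of the maintenance methyltransferase MET1, was at 0.366 and 0.656 CPM in Col-0 and 3.29 and 3.15 in suvh2/9 (log2 1.49, adjusted p = 0.000496), with fve at 1.67 and 1.85. The part that the distance plays in these values was not tested.

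**Figure D4:**
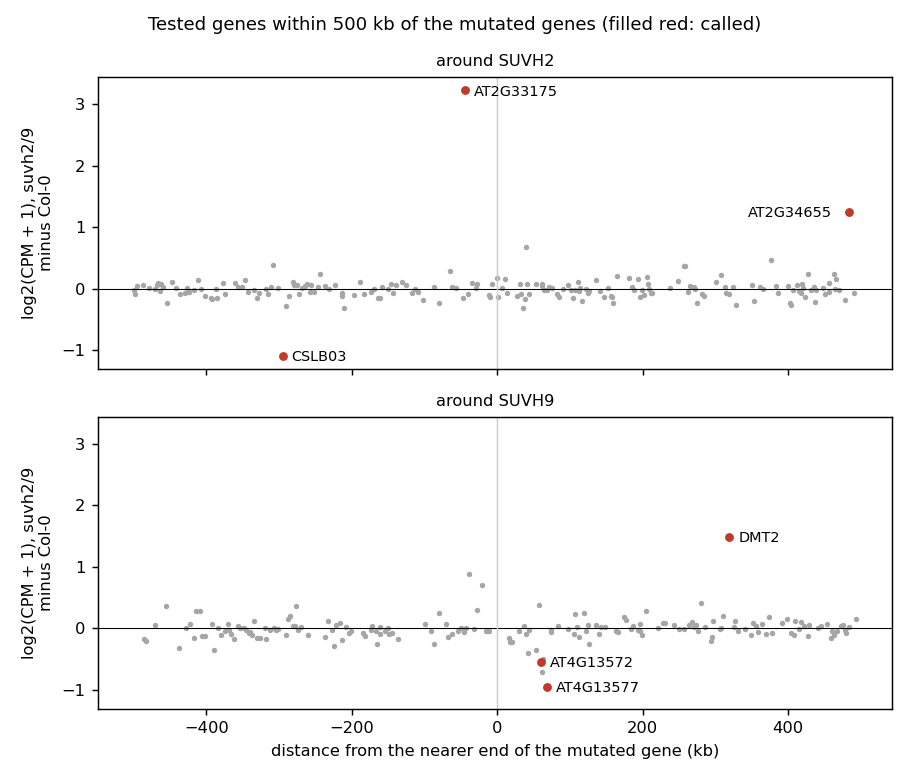
Log2 difference between suvh2/9 and Col-0 (vertical axis, on CPM + 1) of each tested gene within 500 kb of SUVH2 (199 genes, upper panel) and SUVH9 (183 genes, lower panel), against the distance from the nearer end of the mutated gene (kb). The 3 called genes of each panel are filled in red, and the mutated genes themselves are left out.

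The lists of flowering genes held no called gene. FLC, the floral repressor, was at 0.320 and 0.422 CPM in Col-0, 0.657 and 0.706 in suvh2/9 and 11.1 and 11.4 in fve. It was not called against Col-0 (log2 0.30, adjusted p = 0.772) and was lower than in fve by a log2 difference of -2.86 (adjusted p = 3.63e-07). SOC1, a floral promoter, was at 35.3 and 42.2 in Col-0, 45.0 and 50.9 in suvh2/9 (adjusted p = 0.725) and 14.1 and 19.8 in fve. FT was below the filter, at 0.642 and 0.516 in Col-0 and 0.562 and 0.236 in suvh2/9. Of the 6 tested genes each of the FLC clade and of the flowering list and the 7 of the autonomous pathway 0 were called, with 0, 2 and 0 at an unadjusted p below 0.05. ATC, a floral inhibitor related to FT that is on none of these lists and was picked after its values were seen, was at 15.03 and 16.6 CPM in Col-0, 10.8 and 11.1 in suvh2/9 and 9.56 and 8.68 in fve (log2 -0.49, adjusted p = 0.04995).

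In the clock list LHY, a morning-phased transcription factor, fell slightly from 160 and 155 CPM to 130 and 107 (log2 -0.41, SE 0.079, adjusted p = 0.042), a call lost in 9 of 16 alternatives. Its partner CCA1 was at 241 and 263 against 195 and 215 (adjusted p = 0.07) and RVE8 at 69.0 and 71.6 against 56.6 and 60.1 (adjusted p = 0.108). The other 7 tested clock genes had unadjusted p-values above 0.05, and the list's median was -0.0016. LHY was at 12.2 and 13.3 CPM in the Col-0 libraries of the second table. The labels give no time of harvest for either table.

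Stress and hormone lists held no called gene. Of 11 tested genes of salicylic acid and immunity 0 were called and 2 were lower at an unadjusted p below 0.05, and of 9 jasmonate genes 0 and 2 higher. The medians were 0.04 and 0.15. Of 10 touch genes 0 were called, 3 were higher at that level (TCH3, WRKY33 and ZAT10) and the median was 0.31. Of 8 cold-regulated genes 0 were called and 3 were higher, with a median of 0.15. Of 5 heat shock and 9 flavonoid genes 0 were called and 0 had an unadjusted p below 0.05. Photosynthesis (18 tested, 2 higher at an unadjusted p below 0.05), root markers (14, 2 higher), cell division (8, 1 higher), the single tested flower marker and the 6 reference genes also had 0 called, with medians of 0.04, 0.09, 0.04, -0.42 and -0.02.

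Set against fve in place of Col-0, 394 genes differed in suvh2/9 (2.06%), which shares with the other comparison the 2 suvh2/9 libraries. The steepest rises held there too: AT3G01345 was higher than in fve by 6.54, AT2G01422 by 4.69, AT3G29639 by 3.63 and AT3G32030 by 3.08 (adjusted p = 9.84e-08, 4.11e-08, 5.48e-08 and 1.91e-07). GRP5 was lower than in fve by a log2 difference of -1.91 (adjusted p = 0.000791). AT2G13550 and PYD4 were not called between the 2 mutants (log2 -0.16 and -0.03, adjusted p = 0.692 and 0.965). Without fve replicate 1 or 2 the number called was 113 or 142, and without a filter 183.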

How the data were processed

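The data are RNA-seq values per gene from 11-day seedlings, 14 libraries in 2 tables, of which the 4 libraries of suvh2/9 and its Col-0 and the 2 of fve entered the tests. The authors deposited a normalised signal per gene and library without defining it. Per the submitters' processing notes, the authors used HISAT2, featureCounts, edgeR and the build TAIR10, with neither versions nor settings given there. The values have the form of counts adjusted to a common library size, but whole reads could not be recovered, so tests on reads were not run. They were divided by the mean library total of their table (21485907 and 19222451) and multiplied by 1e+06 (CPM). All gene identifiers matched the RefSeq annotation of TAIR10.1, from which names, coordinates and sequences come.

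The 19090 genes that reached 1 CPM in 2 or more of the 6 libraries entered a limma fit (version 3.58.1, R 4.3.3, eBayes with a mean-variance trend, two-sided, residual and prior degrees of freedom 3 and 8.5) on log2(CPM + 1) in 1 fit of Col-0, fve and suvh2/9, and adjusted by Benjamini-Hochberg over all of them. On simulated data for this comparison (19020 genes, 1 dispersion for all) limma recovered 90% of the genes set to a 1.5-fold change and 100% of those set to 2-, 4- or 8-fold. Of its calls 2.5% were false. Spread that differs between genes was not simulated.

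The members, the 28 gene lists and the rule for named genes were chosen with earlier results of these data known. The rule took the mutated genes, the 15 highest and 12 lowest log2 differences among called genes without overlap of groups whose mean reached 2 CPM, up to 4 called members of each list, and ROS1, SDC, FWA, FLC, FT and SOC1. Alternatives changed the pseudocount, the filter, the scaling, the groups in the fit, the moderation, the replicate block and each library in turn.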

Additional observations from a re-analysis of the deposited data

How the results depend on the processing

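The numbers of genes called kept within 1.5 times of those reported with pseudocounts of 0.5 and 0.1, with each library scaled to its own total or by the median ratio, with only Col-0 and suvh2/9 in the fit, and with robust moderation. Without a filter on low values they were 59 (47 higher, 12 lower), and 183 against fve. With a mean of at least 5 CPM they were 62 (42 higher, 20 lower, 22 at least 2-fold) and 213, with fewer genes tested. Without a mean-variance trend they were 63 (45 and 18) and 248. Leaving out 1 library at a time gave 54 to 172 genes called against Col-0, 38 to 134 higher, 15 to 64 lower and 40 to 71 at least 2-fold, and 113 to 469 against fve. The lone library of a group was then assumed to vary like the other groups. The cause was not tested.

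With the replicate number as a block 178 genes were called (115 higher, 63 lower), and 698 against fve. The numbers were not taken to pair the libraries, since the deviations of replicates 1 correlated at 0.144 between Col-0 and suvh2/9 and 0.197 between fve and suvh2/9, but 0.0055 between Col-0 and fve. Of 31 named genes that were called, 19 kept their call in every one of the 16 alternatives that could be run for them, 12 lost it in at least 1, and 0 changed direction. Genes near the floor of 3 counts, 0.140 CPM, are limited by depth.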

Other observations

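Some further called genes, outside the rule and picked after their values were seen, stood apart from all other libraries of the series. SELT, annotated as a SELT-like protein, was at 6.97 and 5.77 CPM in Col-0, 7.98 and 7.48 in fve and 12.6 and 12.2 in suvh2/9 (log2 0.86, limma adjusted p = 0.00259). AT5G36930, a disease resistance gene of the TIR-NBS-LRR class, was at 15.9 and 15.3 in Col-0 and 27.9 and 28.5 in suvh2/9 (log2 0.81, adjusted p = 0.00157). PIP, a proline iminopeptidase gene, was at 54.5 and 58.2 against 78.1 and 82.8 (log2 0.51, adjusted p = 0.00196). AT1G57620, of the p24 family of vesicle cargo proteins, fell from 19.4 and 22.4 to 12.1 and 11.1 (log2 -0.80, adjusted p = 0.00142), and AT5G13980, a glycosyl hydrolase gene, from 134 and 132 to 104 and 104 (log2 -0.35, adjusted p = 0.00658). AT1G33840, of unknown function, rose from 0.0916 and 0.0938 CPM to 2.91 and 2.96 (log2 1.85, adjusted p = 0.000119), with 0 and 0.0462 in fve.

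Of 2 others, also called higher, the fve levels overlapped or passed those of suvh2/9. The meiotic crossover gene HEI10 was at 1.65 and 1.83 CPM in Col-0, 4.74 and 4.14 in suvh2/9 and 5.29 and 4.71 in fve, with a difference of -0.14 between the mutants (adjusted p = 0.698). The lncRNA AT2G05914 was at 0.228 and 0.562 in Col-0, 2.40 and 3.57 in suvh2/9 and 6.36 and 6.05 in fve, and lower in suvh2/9 than in fve by a log2 difference of -0.87 (adjusted p = 0.0261). MTO1, cystathionine gamma-synthase of methionine synthesis, fell from 557 and 550 CPM to 438 and 465 in suvh2/9 (log2 -0.29, adjusted p = 0.0289). The fve libraries lay between them at 496 and 511. The Col-0 libraries of the second table had 320 and 310 CPM of MTO1.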
